A study of Mus musculus with 4 samples.

Results

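Of the 23552 genes in the FPKM table, 9 B-lineage genes were followed in AML c-Kit+ cells with and without overexpression of Suv39h1. They were Pax5, Ebf1, Tcf3, Foxo1, Ikzf1 and Ikzf3, which encode transcription factors, Cd79a and Cd79b, which encode the signalling chains of the B-cell receptor, and Blnk, which encodes an adaptor of that receptor. Each was found by its symbol, and all 9 are described. They were chosen with their FPKM in both groups already known, so the difference between the groups is a description. Counts of genes that passed a fit across the whole table are given beside the share of all genes that passed, and they support nothing about the 9 genes.

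Every library came from C57BL/6 mice (C57BL/6J in the methods) with acute myeloid leukemia (AML) induced by the MLL-AF9 fusion oncogene, from c-Kit+ leukemic cells of the bone marrow at the moribund stage. The control group (control-eGFP overexpression) held 2 libraries, replicates 3 and 4, and the SUV-OE group (Suv39h1-eGFP overexpression) held 2 libraries, replicates 2 and 3. Both groups therefore carried MLL-AF9 and an eGFP vector, and they differed in Suv39h1, which encodes an H3K9 methyltransferase. The vector was a viral MSCV-IRES-EGFP backbone, not restricted to one cell type, and eGFP+ cells were passaged through sublethally irradiated recipients, which keep some blood cells of their own. Experiments were done in female mice at an age of 8 weeks, and the age at collection was not given in the sources used here. Whether each library came from a separate mouse was not given either, so the spread between libraries may be technical in part.

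The libraries held 20085762 to 23561149 recovered reads. The authors' FPKM were scaled by smaller factors, 16873770 to 19453058 per library, at which 3 reads on a gene with 1 kb of exon sequence correspond to 0.154 to 0.178 FPKM. Suv39h1 was higher in both SUV-OE libraries, at 75.3 and 81.2 FPKM against 12.4 FPKM in each control library. Kit, which encodes the marker on which the cells were enriched, was at 20.4 and 19.2 FPKM in control replicates 3 and 4 and at 28.6 and 25.4 FPKM in SUV-OE replicates 2 and 3, and Mpo, a myeloid granule gene, was at 369 and 349 FPKM in control and 292 and 337 FPKM in SUV-OE. Neither gene overlapped between the groups, and their part in the results was not tested.

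B-cell identity is built by a cascade of transcription factors. The E2A proteins encoded by Tcf3, together with Ikaros (Ikzf1) and Foxo1, act in lymphoid progenitors and help to switch on Ebf1, and Ebf1 then activates Pax5, which locks cells into the B lineage. Among the genes that Ebf1 and Pax5 activate are Cd79a, Cd79b and Blnk. The CD79a and CD79b proteins form a dimer that carries the signal of the receptor to the kinase Syk, and Blnk links Syk to Btk and to phospholipase C gamma. Tcf3 and Ikzf1 are also used in myeloid and multipotent progenitors, whereas Pax5 is restricted to B cells within the blood system.

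The 9 genes fell into 3 patterns. Pax5, Ebf1, Foxo1, Cd79a and Blnk were higher in both SUV-OE libraries than in both control libraries, Ikzf3 was lower in both, and Tcf3, Ikzf1 and Cd79b overlapped between the groups. Over the 13736 tested genes, both SUV-OE libraries exceeded both controls in 25.4% and lay under both in 28.4%, and nothing is read from the counts among genes chosen on this contrast. None of the 9 genes passed the limma thresholds (0 of 9, background 1.22%). In the same fit 6 of 9 had an unadjusted p under 0.05 (background 20.7%), 5 of them higher in SUV-OE (10.3%) and 1 lower (10.4%). In limma-voom on recovered reads, 3 of 9 passed, namely Pax5, Foxo1 and Cd79a (background 4.72%). A gene passed when its adjusted p was under 0.05 and its log2 fold change was 1 or more in size. In all, 4 of the 9 genes (Pax5, Ebf1, Foxo1 and Blnk) reached the minimum mean of 0.5 FPKM only through the SUV-OE libraries, so they had to differ to be tested in limma. Pax5, Ebf1 and Blnk likewise reached the minimum mean of 10 reads in limma-voom only through SUV-OE, which holds for their limma-voom values given below.

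**Figure D1:**
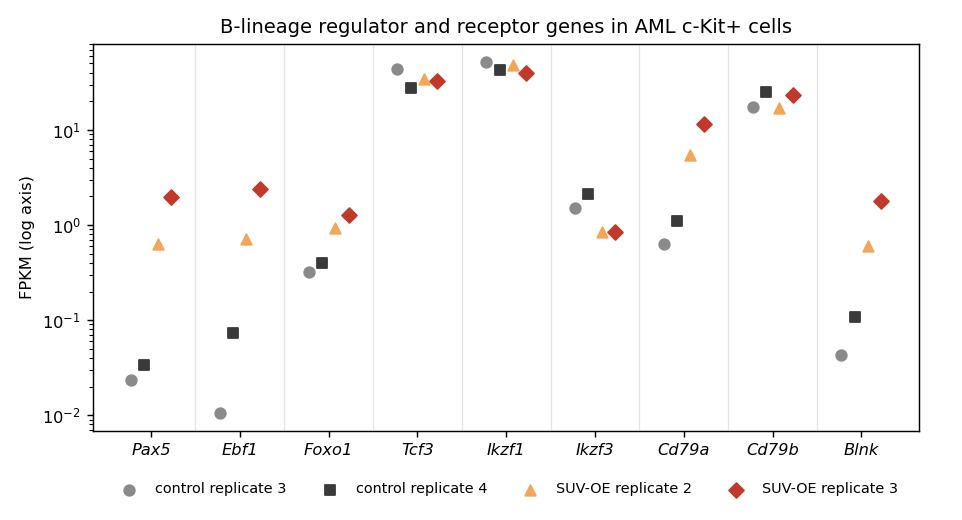
FPKM of the 9 genes (log axis) in each of the 4 libraries, with 1 point per library and no averaging. Pax5, Ebf1, Foxo1, Cd79a and Blnk lie higher in both SUV-OE libraries, Ikzf3 lies lower in both, and Tcf3, Ikzf1 and Cd79b overlap between the groups.

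Promoter sequence was examined first for the genes that moved together, since the rule that picked them did not use it. RefSeq windows of 300 bases (250 before and 50 after the RefSeq gene start, GRCm38, the assembly also named mm10) were found for 7 of the 9 genes, in 9 windows. No window was used here for Ikzf3 and Cd79b. These starts can differ from the gene coordinates given below, which are from GENCODE M21. The Pax5 window lies wholly upstream of the gene by those coordinates, and the Ebf1 window shown lies inside the gene. The windows were searched on both strands for 5 motifs of factors of the cascade, and the capitals below mark the matches. The EBF motif was searched as TCCC and GGGA with any 2 bases between them, and 0.904% of 32851 mouse windows held it. The E2A-type E-box was searched as CAGGTG (20.2% of windows), the Forkhead motif as TGTTTAC (3.65%), the Ikaros motif as TGGGAA (25.6%) and the ETS motif of PU.1 and Spi-B as GAGGAA (28.3%). No match overlapped another in the windows shown, which belong to the 5 genes that were higher in SUV-OE.
Pax5, chr4:44710645-44710944, minus strand: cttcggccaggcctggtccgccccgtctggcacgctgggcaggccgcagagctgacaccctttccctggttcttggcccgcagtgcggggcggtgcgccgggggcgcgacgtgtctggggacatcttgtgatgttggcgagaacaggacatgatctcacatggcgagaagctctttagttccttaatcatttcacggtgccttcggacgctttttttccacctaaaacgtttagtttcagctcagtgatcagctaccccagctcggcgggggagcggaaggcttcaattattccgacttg
Ebf1, downstream of 2 starts, chr11:44619978-44620277, plus strand: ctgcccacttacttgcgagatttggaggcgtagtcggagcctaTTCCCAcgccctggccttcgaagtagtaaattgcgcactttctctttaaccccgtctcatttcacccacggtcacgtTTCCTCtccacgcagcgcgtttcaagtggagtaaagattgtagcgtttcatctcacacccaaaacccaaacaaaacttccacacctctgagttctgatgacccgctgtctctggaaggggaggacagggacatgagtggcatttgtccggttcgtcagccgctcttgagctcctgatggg
Foxo1, chr3:52268087-52268386, plus strand: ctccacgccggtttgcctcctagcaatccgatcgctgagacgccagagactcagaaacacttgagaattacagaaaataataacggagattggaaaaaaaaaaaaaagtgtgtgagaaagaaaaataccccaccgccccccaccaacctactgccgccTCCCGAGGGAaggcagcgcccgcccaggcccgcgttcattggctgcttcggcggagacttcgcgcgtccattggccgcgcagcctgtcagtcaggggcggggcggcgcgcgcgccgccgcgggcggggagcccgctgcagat
Cd79a, chr7:24897247-24897546, plus strand: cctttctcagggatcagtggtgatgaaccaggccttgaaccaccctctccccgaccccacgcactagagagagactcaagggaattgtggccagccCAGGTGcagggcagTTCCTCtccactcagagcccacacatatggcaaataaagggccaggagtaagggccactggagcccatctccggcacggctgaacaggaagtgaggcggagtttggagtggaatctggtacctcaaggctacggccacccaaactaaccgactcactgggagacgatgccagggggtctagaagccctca
Blnk, chr19:40994172-40994471, minus strand: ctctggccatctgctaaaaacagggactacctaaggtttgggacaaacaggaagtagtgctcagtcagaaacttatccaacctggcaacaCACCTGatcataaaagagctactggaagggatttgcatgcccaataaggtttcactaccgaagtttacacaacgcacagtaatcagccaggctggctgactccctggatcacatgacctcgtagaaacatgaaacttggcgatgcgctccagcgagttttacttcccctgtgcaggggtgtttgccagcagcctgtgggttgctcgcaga

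The Foxo1 window held 1 EBF match, TCCCGAGGGA, whose first base lay at position -92 from the gene start. In the Cd79a window, an E-box began at position -154 and an ETS match, on the opposite strand, at position -140. The Blnk window had 1 E-box on the opposite strand, at position -160. The second Ebf1 window had an Ikaros match at position -207 and an ETS match at position -130, both on the opposite strand. None of the 5 motifs was found in the windows of Pax5, Tcf3 and Ikzf1 or in the first window of Ebf1, which says only that these letters were not present there. In the exact letters searched, the genes that were higher in SUV-OE thus shared no single one of the 5 motifs in these windows. Sites that depart from those letters were not counted, so a factor's site may be present in a window without a match. The matches describe sequence, and binding was not measured in these libraries.

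**Figure D2:**
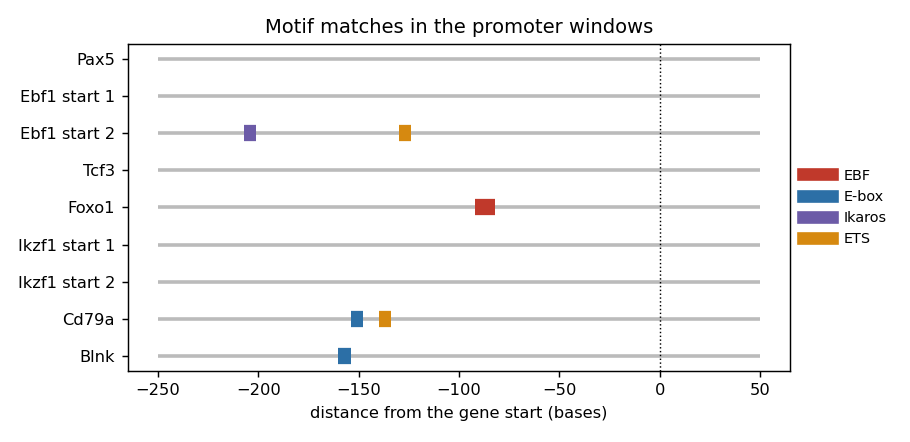
Matches to the motifs in the 9 promoter windows of 7 genes, by distance from the gene start in bases (dotted line at 0, grey line for the extent of each window). Foxo1 has the EBF match, Cd79a and Blnk have E-boxes, Ebf1 start 2 has an Ikaros and an ETS match, and the Forkhead motif has no match.

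Pax5 (ENSMUSG00000014030, chromosome 4, 44524757 to 44710487, minus strand), the commitment factor, was at 0.0232 and 0.0335 FPKM in control replicates 3 and 4 and at 0.637 and 1.96 FPKM in SUV-OE replicates 2 and 3. These values rested on 4, 5, 100 and 309 reads over 8853 bases of exons, where a floor of 3 reads is 0.0174 to 0.0201 FPKM. Both control libraries were therefore just above the floor, both SUV-OE libraries were well above it, and the SUV-OE libraries were far from equal. The pooled read rate was 46.5-fold higher in SUV-OE, with a counting interval of 24.2 to 102 (95%, exact binomial, counting error only). SUV-OE replicate 2 alone was at 22.5 times the control mean and SUV-OE replicate 3 at 69.3 times. On the log2(FPKM + 1) scale, which understates changes of low genes, the log2 fold change was 1.10 (SE 0.32), and in limma-voom it was 5.19 (SE 1.08). Exons of Pax5 overlap 2 genes on the opposite strand, 5730488B01Rik over 636 bases and Gm12462 over 125 bases. Neither overlapping gene had a mean above 0.0365 FPKM in either group, and the library kit does not mark strand.

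Ebf1 (ENSMUSG00000057098, chromosome 11, 44617317 to 45008091, plus strand), the factor directly upstream of Pax5, had the same order of libraries. It was at 0.0105 and 0.0729 FPKM in control replicates 3 and 4 and at 0.705 and 2.39 FPKM in SUV-OE replicates 2 and 3, from 2, 12, 122 and 414 reads. Control replicate 3 lay under the floor of 3 reads, and the groups did not overlap. Its pooled read rate was 39.2-fold higher in SUV-OE (counting interval 23.1 to 72.1), and its log2 fold change was 1.21 (SE 0.36) on the log2(FPKM + 1) scale and 5.41 (SE 1.28) in limma-voom. The FPKM ratio of Ebf1 to Pax5 was 1.11 and 1.22 in SUV-OE replicates 2 and 3. Ebf1 and Pax5 thus stood in nearly the same ratio in both SUV-OE libraries although their levels differed by more than 3-fold between them. In the control libraries that ratio was 0.454 and 2.18, from few reads.

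Foxo1 (ENSMUSG00000044167, chromosome 3, 52268336 to 52353221, plus strand), a Forkhead factor that activates Rag and Il7r genes in B-cell precursors, changed by less. Its FPKM was 0.320 and 0.404 in control replicates 3 and 4 and 0.937 and 1.29 in SUV-OE replicates 2 and 3, from 54, 59, 144 and 198 reads. Its libraries were closer to each other within each group than those of Pax5 and Ebf1, and the groups did not overlap. The pooled read rate was 3.09-fold higher in SUV-OE (counting interval 2.50 to 3.86), with a log2 fold change of 0.63 (SE 0.18), or 1.61 (SE 0.30) in limma-voom. Foxo1 shares 674 exonic bases with Gm20402 on the opposite strand, which has no row in the table. Its paralogs Foxo3 and Foxo4 were expressed at higher levels, at 6.69 to 10.1 FPKM and 8.09 to 13.0 FPKM over the 4 libraries.

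Tcf3 (ENSMUSG00000020167, chromosome 10, 80409514 to 80433647, minus strand), which encodes the E2A proteins, was at 43.6 and 27.8 FPKM in control replicates 3 and 4 and at 34.7 and 32.9 FPKM in SUV-OE replicates 2 and 3. Both SUV-OE libraries lay between the control libraries. The log2 fold change was -0.04 (SE 0.23), and it took the opposite sign, 0.09, under quantile normalization. Of the related E-protein genes, Tcf12 also overlapped between the groups, at 4.77 to 5.55 FPKM, whereas Tcf4 was at 0.473 and 0.498 FPKM in control and 2.15 and 2.01 FPKM in SUV-OE, with a log2 fold change of 1.05 (SE 0.15) that passed in limma-voom and not in limma. Of the Id genes, which encode inhibitors of E proteins, Id1 overlapped at 19.4 to 34.4 FPKM and Id2 was at 3.80 and 5.04 FPKM in control and 6.08 and 7.13 FPKM in SUV-OE.

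Ikzf1 (ENSMUSG00000018654, chromosome 11, 11685003 to 11772926, plus strand), which encodes Ikaros, was the most highly expressed of the 9 genes in mean FPKM in both groups. It was at 52.4 and 42.7 FPKM in control replicates 3 and 4 and at 47.7 and 39.8 FPKM in SUV-OE replicates 2 and 3, so the groups overlapped. The log2 fold change was -0.12 (SE 0.17) and changed sign, to 0.04, under quantile normalization. Ikzf3 (ENSMUSG00000018168, chromosome 11, 98464902 to 98546031, minus strand), which encodes Aiolos, an Ikaros relative of later B-cell stages, was the single gene of the 9 that was lower in both SUV-OE libraries. It was at 1.51 and 2.10 FPKM in control replicates 3 and 4 and at 0.837 and 0.855 FPKM in SUV-OE replicates 2 and 3, from 257, 310, 130 and 133 reads. The SUV-OE libraries differed from each other by less than counting error, with a ratio of 1.02 (counting interval 0.796 to 1.31). The pooled read rate in SUV-OE was 0.474 of that in control (counting interval 0.408 to 0.550), with a log2 fold change of -0.60 (SE 0.18), or -1.06 (SE 0.24) in limma-voom. Ikzf3 is one of the genes that Pax5 is known to activate, and here it was lower in the libraries where Pax5 was higher.

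Cd79a (ENSMUSG00000003379, chromosome 7, 24897381 to 24902197, plus strand) had the largest log2 fold change of the 9 genes on the log2(FPKM + 1) scale. Its FPKM was 0.635 and 1.10 in control replicates 3 and 4 and 5.49 and 11.7 in SUV-OE replicates 2 and 3, from 18, 27, 142 and 302 reads. All 4 libraries lay above the floor of 3 reads, and the groups did not overlap. The pooled read rate was 10.1-fold higher in SUV-OE (counting interval 7.41 to 14.0), with a log2 fold change of 2.29 (SE 0.35), or 3.25 (SE 0.58) in limma-voom. With SUV-OE replicate 3 left out the log2 fold change was 1.81, and with SUV-OE replicate 2 left out it was 2.77.

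Cd79b (ENSMUSG00000040592, chromosome 11, 106311341 to 106314762, minus strand), the partner chain, behaved differently. It was at 17.4 and 25.01 FPKM in control replicates 3 and 4 and at 17.2 and 23.4 FPKM in SUV-OE replicates 2 and 3, with a log2 fold change of -0.06 (SE 0.24) that became 0.03 under quantile normalization. Cd79b was thus well expressed in control cells in which Cd79a was near 1 FPKM. The ratio of Cd79a to Cd79b FPKM, 2 genes whose proteins pair in the receptor, was 0.0365 and 0.0439 in control replicates 3 and 4 and 0.320 and 0.499 in SUV-OE replicates 2 and 3. Messenger RNA for Cd79b exceeded that for Cd79a in every library.

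Blnk (ENSMUSG00000061132, chromosome 19, 40928927 to 40994535, minus strand), the receptor adaptor, was at 0.0429 and 0.109 FPKM in control replicates 3 and 4 and at 0.602 and 1.79 FPKM in SUV-OE replicates 2 and 3, from 5, 11, 64 and 191 reads. The groups did not overlap, and the order of the 4 libraries was that of Pax5, Ebf1, Foxo1 and Cd79a. Its pooled read rate was 16.3-fold higher in SUV-OE (counting interval 9.84 to 28.9). The log2 fold change was 0.98 (SE 0.31) on the log2(FPKM + 1) scale and 3.86 (SE 0.88) in limma-voom. In bulk RNA, more cells that express these genes and more RNA per cell cannot be told apart.

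**Figure D3:**
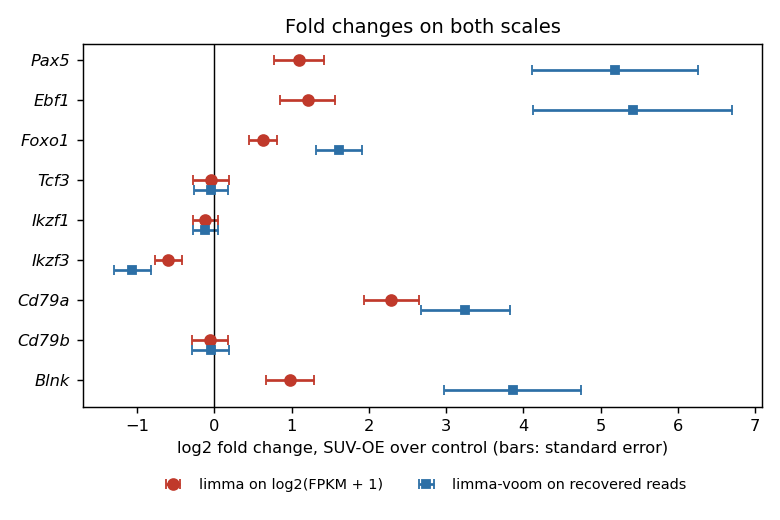
Log2 fold change of SUV-OE over control for the 9 genes, from limma on log2(FPKM + 1) (circles) and from limma-voom on recovered reads (squares), with bars for the standard error. Pax5, at 1.10 and 5.19, shows how far the added 1 FPKM lowers the fold change of genes with few control reads, while Tcf3, Ikzf1 and Cd79b lie near 0 on both scales.

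The order of levels, in mean FPKM per length of exon, differed between the groups mainly at the low end. In control it ran from Ikzf1 (47.5 ± 6.86, SD, n = 2) and Tcf3 (35.7 ± 11.2), which overlapped, to Cd79b (21.2 ± 5.39). Ikzf3 (1.80 ± 0.417), Cd79a (0.867 ± 0.327) and Foxo1 (0.362 ± 0.0588) followed without overlap, and Blnk, Ebf1 and Pax5 came last at 0.0759, 0.0417 and 0.0283 FPKM, where Ebf1 overlapped both others and Blnk lay above Pax5 in both libraries. In SUV-OE the first 3 places were unchanged, Cd79a (8.58 ± 4.36) moved above Ikzf3, and Ebf1, Pax5, Blnk and Foxo1 overlapped one another at means of 1.55, 1.30, 1.20 and 1.11 FPKM. Ikzf3 had the lowest mean in SUV-OE (0.846 ± 0.0125), but its libraries fell within the ranges of Ebf1, Pax5 and Blnk, all of which were below it in SUV-OE replicate 2.

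The SUV-OE libraries were then compared with each other. SUV-OE replicate 3 exceeded replicate 2 by 3.08-fold for Pax5 (counting interval 2.45 to 3.904). The same ratio was 3.39 for Ebf1 (2.76 to 4.18), 2.98 for Blnk (2.23 to 4.02) and 2.12 for Cd79a (1.73 to 2.61). These 4 genes, all low in control, were thus higher in replicate 3 beyond counting error. Foxo1 had a ratio of 1.37 (1.10 to 1.71) and Cd79b one of 1.36 (1.20 to 1.54), smaller but also beyond counting error. Tcf3, Ikzf1 and Ikzf3 lay at 0.946, 0.834 and 1.02. Over 13618 tested genes the middle 50% of this ratio ran from 0.900 to 1.12, and over the 404 genes with a log2 fold change of at least 1 it ran from 0.859 to 1.32. Suv39h1 itself differed by a ratio of 1.08 between these libraries.

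Without SUV-OE replicate 3, Pax5, Ebf1 and Blnk fell under the minimum mean FPKM and could not be fitted, although their FPKM in replicate 2 was 22.5, 16.9 and 7.94 times the control mean. The control libraries also differed. Replicate 4 had 1.44, 6.92, 2.54 and 1.73 times the FPKM of replicate 3 for Pax5, Ebf1, Blnk and Cd79a, and for Ebf1 alone of these the counting interval (1.54 to 63.6) excluded 1.

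**Figure D4:**
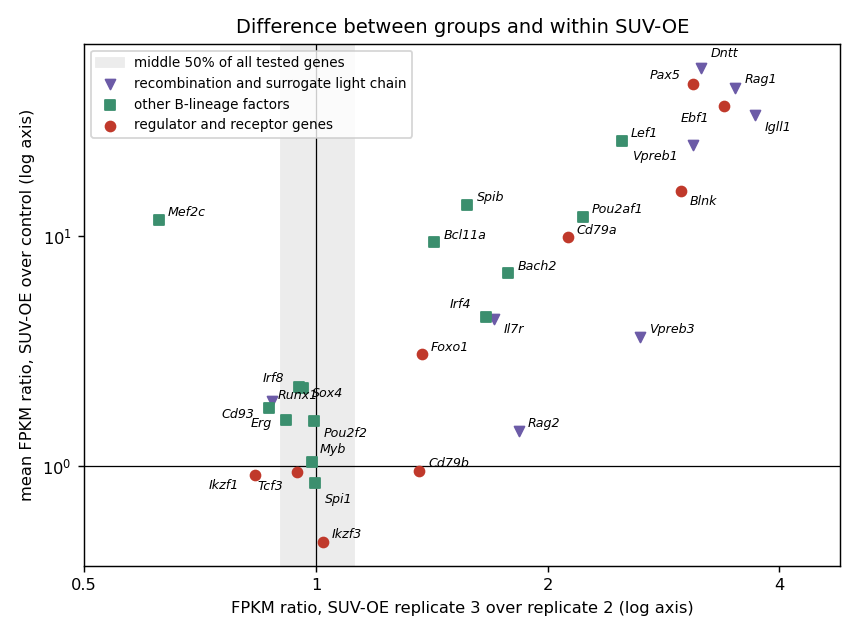
Ratio of FPKM between SUV-OE replicates 3 and 2 (log axis) against the ratio of mean FPKM between SUV-OE and control (log axis), for the 9 genes and the members of 2 related lists, with 1 point per gene and a grey band for the middle 50% of all tested genes. Pax5, Ebf1 and Blnk lie with Rag1, Igll1 and Dntt between 2.98 and 3.72 on the horizontal axis, Irf8 and Ikzf3 lie inside the band and Mef2c to its left, and Vpreb2, listed at 0 in both control libraries, is not drawn.

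Other genes of the B-lineage program were read from 4 lists with 59 genes, of which 56 were in the table and 43 were tested. By limma, 2 of 43 passed (Irf8 and Vpreb2), both higher in SUV-OE, against 0.815% of all tested genes in that direction. An unadjusted p under 0.05 was seen for 22 of 43, all of them higher, against 10.3% of all tested genes. Limma-voom passed 15 of 51, all higher, where 3.63% of all genes passed in that direction. The lists were drawn up with results of these data known, and 12 of the 43 tested genes reached the minimum FPKM only through the SUV-OE libraries. In limma-voom, 8 of the 51 tested and 4 of the 15 that passed (Spib, Lef1, Dntt and Vpreb2) reached the minimum reads only through SUV-OE. With any 1 library left out, 0 genes of the whole table passed in limma, Irf8 and Vpreb2 among those lost, while 1146 to 3895 genes had an unadjusted p under 0.05.

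Other transcription factors of the B lineage were listed next. Of 14 in the table, 12 were higher in both SUV-OE libraries than in either control library, 1 was lower and 1 overlapped. Among the 10 that were tested, 8 were higher (25.4% of all tested genes) and 1 was lower (28.4%). The median log2 fold change of the 14 was 0.66, against 0.01 over all genes in the table. Irf8, which acts with PU.1 in B cells and in dendritic cells, was at 5.22 and 5.01 FPKM in control and 11.6 and 11.0 FPKM in SUV-OE, and it passed the test (log2 fold change 1.01, SE 0.11, limma adjusted p = 0.0405). The largest fold changes on the log2(FPKM + 1) scale belonged to Pou2af1, a coactivator of Oct factors in B cells, and Mef2c. Pou2af1 was at 0.240 and 0.254 FPKM in control and 1.87 and 4.14 FPKM in SUV-OE (log2 fold change 1.62, SE 0.31), and it passed in limma-voom alone. Mef2c was at 0.144 and 0.1999 FPKM in control and 2.50 and 1.56 FPKM in SUV-OE (1.35, SE 0.21), so that, unlike Pax5, it was lower in SUV-OE replicate 3 than in replicate 2. Spi1, which encodes PU.1, was at 152 and 113 FPKM in control and at 112 FPKM in both SUV-OE libraries.

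Genes of early B-cell precursors had the highest median of the 4 lists. Of 9 genes for recombination and the surrogate light chain, 8 were higher in both SUV-OE libraries (25.4% of all tested genes) and Rag2 overlapped, and the median log2 fold change was 1.83. Vpreb2 was listed at 0 in both control libraries and at 1.97 and 3.28 FPKM in SUV-OE, with a limma adjusted p of 0.0480. It was tested only because of its SUV-OE values, so this p is a description, and its reads are uncertain because the near-identical Vpreb1 can share them. Dntt, which encodes the terminal transferase of V(D)J joining, was at 0.0725 and 0.390 FPKM in control and 6.01 and 19.0 FPKM in SUV-OE, with a log2 fold change of 3.28 (SE 0.52). Vpreb1 was at 0.277 and 0.745 FPKM in control and 6.23 and 19.3 FPKM in SUV-OE, with a log2 fold change of 3.02 (SE 0.52). Both passed in limma-voom and not in limma, and in both SUV-OE replicate 3 was about 3-fold above replicate 2, as for Pax5 and Ebf1.

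The signalling genes of the receptor had the lowest median. Of 20 in the table, 10 overlapped between the groups, 8 were higher in both SUV-OE libraries and 2 lower, and the median log2 fold change was 0.11. Among the 15 that were tested, 5 were higher (25.4% of all tested genes) and 2 lower (28.4%). None of the 15 tested passed in limma (0 of 15, against 1.22% of all genes), 3 had an unadjusted p under 0.05, a share near the 20.7% of all genes, and limma-voom passed 1 of 18, Fyn (4.72% of all genes). The kinases and effectors that myeloid cells also use were well expressed in every library, Syk at 26.0 to 31.1 FPKM, Btk at 97.8 to 110 FPKM, Lyn at 21.6 to 25.8 FPKM and Plcg2 at 43.4 to 56.1 FPKM. Messenger RNA for the receptor chain Cd79b and for these signalling genes was thus present in every library, whereas Cd79a and Blnk were low in control. Whether the same cells expressed them cannot be told from bulk RNA. Cd24a, which encodes a surface marker of B-cell precursors that other cells also carry, was at 32.5 and 31.9 FPKM in control and 61.0 and 64.3 FPKM in SUV-OE (log2 fold change 0.94, SE 0.11), just under the fold threshold.

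**Figure D5:**
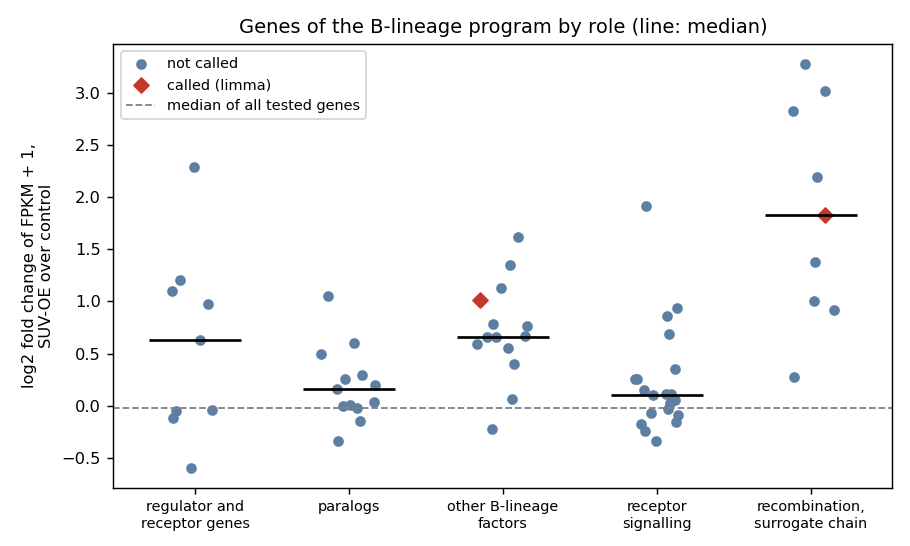
Log2 fold change on the log2(FPKM + 1) scale for the 9 genes and for the genes of 4 related lists, with 1 point per gene in the table, black lines for the median of each list, diamonds for genes that passed the limma thresholds and a dashed line for the median of all tested genes (-0.02). The recombination and surrogate light chain genes have the highest median, at 1.83, and the receptor signalling genes the lowest, at 0.11.

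The paralogs of the regulators, which include the Id genes, were 13 in the table, and 4 of them (Tcf4, Foxo4, Ikzf2 and Id2) were higher in both SUV-OE libraries. All 4 were among the 9 tested, where the share over all tested genes was 25.4%. None of 9 tested passed in limma (0 of 9, against 1.22% of all genes), 3 had an unadjusted p under 0.05 (20.7% of all genes), and limma-voom passed 1 of 10, Tcf4 (4.72%). Foxo4 was at 8.30 and 8.09 FPKM in control and 13.0 and 12.9 FPKM in SUV-OE. The closest relatives of Pax5 and Ebf1 in the list did not share their pattern, since Pax8 was at 1.004 to 1.74 FPKM and Ebf3 at 0.0236 to 0.0614 FPKM with overlapping groups.

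Genes known as targets of Pax5 were listed in both directions. Of 10 that Pax5 activates, Cd79a, Blnk and Ikzf3 included, 9 were higher in both SUV-OE libraries and Ikzf3 was lower in both. Of 8 that Pax5 represses, 5 were higher in both SUV-OE libraries, 2 overlapped and Flt3 was lower. Of the 5 tested in each list, 4 activated and 2 repressed genes were higher in both SUV-OE libraries, and 1 in each list was lower. Over all tested genes these shares were 25.4% higher and 28.4% lower. Flt3, a receptor of early lymphoid and myeloid progenitors, was at 10.3 and 9.08 FPKM in control and 6.196 and 4.18 FPKM in SUV-OE. Jchain, which is high in plasma cells, was at 0.858 and 1.79 FPKM in control and 5.24 and 7.62 FPKM in SUV-OE. None of the 5 tested genes of the repressed list passed in limma (0 of 5, against 1.22% of all genes), 3 had an unadjusted p under 0.05 (20.7%), and limma-voom passed 3 of 7 (4.72%), of which Cd28 and Sdc1 reached the minimum reads only through SUV-OE. In the activated list limma passed 1 of 5 (Irf8), 5 of 5 had an unadjusted p under 0.05, Ikzf3 as lower, and limma-voom passed 5 of 9, of which Lef1 and Spib reached the minimum reads only through SUV-OE.

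Markers of other cell types were set beside these results, and their part in them was not tested. Of all tested genes, 25.4% were higher in both SUV-OE libraries. The marker counts below also include genes under the minimum mean FPKM, for which that share does not hold. Among tested markers, 1 of 2 of mature B cells, 3 of 4 of plasma cells and 5 of 7 of plasmacytoid dendritic cells were higher. The same held for 3 of 4 tested T-cell markers and 0 of 1 of natural killer cells. All macrophage and leukemic progenitor markers were tested. The 10 mature B-cell markers summed to 2.10 and 2.72 FPKM in control and 5.60 and 8.33 FPKM in SUV-OE, of which Cd74 (1.35 and 1.39 against 3.96 and 4.91 FPKM, limma adjusted p = 0.0488) made up most. Of these 10, 6 were higher in both SUV-OE libraries, 1 was lower and 3 overlapped. Ighd had 0, 2, 6 and 20 reads in control replicates 3 and 4 and SUV-OE replicates 2 and 3, and Tnfrsf13c was at 0.0255 and 0.147 FPKM in control and 0.224 and 0.558 FPKM in SUV-OE, whereas the defining markers Ms4a1 (CD20) and Fcer2a had at most 3 reads in any library. The 7 plasma cell markers summed to 58.7 and 55.9 FPKM in control and 55.0 and 74.8 FPKM in SUV-OE, mostly from Xbp1, which overlapped. Of these 7, 5 were higher in both SUV-OE libraries and 0 lower, and limma-voom passed 3 of 5 (Jchain, Sdc1 and Irf4), against 4.72% of all genes, of which Sdc1 reached the minimum reads only through SUV-OE. Mzb1, which is also active in B-cell precursors, had 0, 0.196, 1.49 and 7.27 FPKM.

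Plasmacytoid dendritic cells share Tcf4, Spib and Irf8 with the B lineage. Their 11 markers summed to 67.9 and 74.8 FPKM in control and 92.1 and 97.7 FPKM in SUV-OE, with 7 of 11 higher in both SUV-OE libraries and 1 lower, and their defining gene Siglech had 2, 0, 3 and 5 reads. The 11 T-cell markers summed to 5.94 and 5.92 FPKM in control and 6.90 and 7.46 FPKM in SUV-OE, with 5 of 11 higher in both SUV-OE libraries and 1 lower. Cd3e was at no more than 0.0825 FPKM, and Cd8a had 0 reads in each control library and 1 in each SUV-OE library. The 7 natural killer cell markers summed to 73.1 and 113 FPKM in control and 76.2 and 83.5 FPKM in SUV-OE, nearly all from Nkg7, which overlapped. Of these 7, 4 were higher in both SUV-OE libraries and 0 lower. Ncr1 had 0 reads in both control libraries and 10 and 12 reads in SUV-OE replicates 2 and 3, and Klre1 had 0 reads in control and 2 and 8 reads in SUV-OE. The 8 macrophage markers summed to 134 and 162 FPKM in control and 177 and 175 FPKM in SUV-OE, and 7 of 8 were higher in both SUV-OE libraries and 1 lower. The 9 markers of leukemic progenitors summed to 2152 and 2100 FPKM in control and 1912 and 2397 FPKM in SUV-OE, mostly from Elane, with overlapping sums, 2 of 9 higher in both SUV-OE libraries and 3 lower.

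The genes nearest to Pax5 and to Cd79a were found among the 13727 tested genes other than the 9 described, by the Euclidean distance of log2(FPKM + 1), centred on each gene's mean, over the 4 libraries. Nearest to Pax5 were Mir192, Mir1948, n-R5s158 and Mir7087, at distances of 0.0325 to 0.116, and these are short genes of 70 to 118 bases with at most 5 reads in a library. The fifth among these other genes, Nlrc5, a regulator of MHC class I genes, was at 0.854 and 0.806 FPKM in control and 1.95 and 3.71 FPKM in SUV-OE. Nearest to Cd79a were H2-Q5, annotated as a polymorphic pseudogene, and H2-Q7, a protein-coding gene. Both belong to a family of nonclassical MHC class I genes in which reads can be shared. Then came the immunoglobulin segment Ighd1-1 with at most 2 reads, Rag1 and the segment Ighv11-2. The distances of all these genes from Cd79a were 0.221 to 0.413. Rag1, which encodes a recombinase subunit, was at 0.0700 and 0.143 FPKM in control and 2.09 and 7.32 FPKM in SUV-OE.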

How the data were processed

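RNA-seq of AML c-Kit+ cells was read from the deposited table, which gives 1 FPKM value per gene and library (23552 genes, 4 libraries, batch 2). According to the study's methods, paired-end reads of TruSeq RNA v2 libraries were aligned to mm10 with TopHat2, and the authors calculated FPKM with Cufflinks. The submitters' processing notes also name CASAVA 1.8. Versions of the aligner and the annotation release are not given in the sources used here.

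From these values, SUV-OE and control libraries were compared on log2(FPKM + 1) with limma 3.58.1 in R 4.3.3, for the 13736 genes whose mean was 0.5 FPKM or more. Group was the sole term, with an intensity trend. Genes passed at an adjusted p under 0.05 (Benjamini-Hochberg over all tested genes) with a log2 fold change of 1 or more in size. Positions and exon lengths came from GENCODE M21 (mm10), which matched 23438 genes. FPKM multiplied by exon length and by 1 factor per library, recovered from the steps between values, gave whole reads in all 4 libraries, within 0.01, for 78.5% of genes and for all 9 genes described, so limma-voom was run on the recovered reads at a mean of at least 10 (14288 genes), with these factors as library sizes, as an alternative. The count test and the authors' DESeq2 calls were not used as the main test because the deposited unit was FPKM. Fold intervals are exact binomial (95%), and they and the floor of 3 reads cover counting error only. Scripts were tested on simulated data.

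The 9 genes and all lists were chosen with earlier results of these data known. Genes named one by one are these 9, the listed genes that passed or that a sentence turns on, the 2 of each pathway list with the largest absolute log2 fold change, the 5 nearest to Pax5 and to Cd79a, and Suv39h1. The result of 1 gene under this rule is not reported here. Genes quoted beyond these, such as Kit or Syk, were chosen after their values were seen. Alternatives were a pseudocount of 0.1, no filter or a minimum mean of 1 FPKM, scaling by quantiles or by the median of ratios, no trend, an adjusted p under 0.1, limma-voom and leaving out each library.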

Additional observations from a re-analysis of the deposited data

How the results depend on the processing

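Over all genes, 168 passed in the main comparison (112 higher and 56 lower in SUV-OE). The count was 0 without a filter (4177 genes at an unadjusted p under 0.05), 675 in limma-voom (518 higher and 157 lower) and 342 at an adjusted p under 0.1 (249 higher and 93 lower). Among the 9 genes described, 0 passed in the main comparison (6 at an unadjusted p under 0.05), 3 passed in limma-voom (Pax5, Foxo1 and Cd79a) and 1 at an adjusted p under 0.1 (Cd79a). Among the genes of the 4 related lists, 2 passed in the main comparison, 1 with a pseudocount of 0.1, 0 without a filter (26 at an unadjusted p under 0.05), 15 in limma-voom and 8 at an adjusted p under 0.1. With any 1 library left out, limma passed 0 to 0 genes, in the whole table, among the 9 genes and in the lists alike, where 1146 to 3895 genes had an unadjusted p under 0.05. The lone library is then assumed to vary like the other group, with 1 library fewer behind the spread. The log2 fold changes of Pax5, Ebf1, Foxo1, Cd79a and Blnk were above 0 and that of Ikzf3 below 0 under every alternative in which they could be fitted. Those of Pax5 ran from 0.85 (quantile normalization) to 3.26 (pseudocount 0.1) and 5.19 (limma-voom). At a mean FPKM of at least 1, Pax5, Ebf1, Foxo1 and Blnk were not tested. Tcf3, Ikzf1 and Cd79b changed sign under quantile normalization and when single libraries were left out. No paired analysis was possible because 3 is the one replicate number found in both groups. Depth limits the control values of Pax5, Ebf1 and Blnk, which rest on 2 to 12 reads in each library.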
